A study of Ovis aries with 16 samples.

Results

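The miR-200 family is described here by its 3 members among the 105 microRNAs (miRNAs) in the data, MIR200A, MIR200B and MIR200C, which are all rows whose name starts with MIR200. Small RNA libraries were sequenced from 2 tissues, liver and muscle, of 8 female sheep. The 4 control ewes carried the numbers 98, 131, 132 and 201, and the 4 ewes with prenatal testosterone treatment (prenatal T) the numbers 48, 185, 233 and 255. Each ewe gave 1 library per tissue, so the 16 libraries fall into 4 groups of 4: control liver, prenatal T liver, control muscle and prenatal T muscle. The labels give female sex and no age, dose or time of treatment. The comparisons ask how these miRNAs differ after exposure to testosterone before birth and between both tissues of an ewe.

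MiR-200 miRNAs are known as markers of epithelial cells. They repress the transcription factors ZEB1 and ZEB2, which in turn repress the miR-200 genes and E-cadherin, and this mutual repression helps to hold cells in an epithelial or a mesenchymal state. In liver the family is studied in bile duct cells and hepatocytes and in fibrosis, and skeletal muscle fibres are known for low levels of it. The family's genes lie in a pair of clusters. In the sheep RefSeq annotation (ARS-UI_Ramb_v3.0) MIR200A and MIR200B are direct neighbours between TTLL10 and C12H1orf159. MIR200C lies on another chromosome next to PTPN6, a phosphatase gene of blood cells, and the small nucleolar RNA LOC114114279. The mature forms of miR-200b and miR-200c are nearly identical and share a seed, the part that pairs with target mRNAs, while that of miR-200a differs slightly. How reads that match more than 1 member were assigned is not given in the sources used here, so the split between MIR200B and MIR200C is uncertain. The 2 arms of a hairpin are not separated in the data.

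Values are the authors' normalised reads, which are reads divided by a size factor of each library. The reads themselves could be recovered from them. Liver libraries held 206304 to 755344 miRNA reads and muscle libraries 113522 to 885316. Here and below, miRNA reads, shares and ranks cover the 105 miRNAs in the data alone. A level of 3 reads, taken as the floor, stood for 3.97 to 14.5 RPM in liver, where RPM is reads in every 1000000 miRNA reads, and 3.39 to 26.4 RPM in muscle. The tissue labels were compared with marker miRNAs. The data held 2 of 5 hepatocyte miRNAs listed and 1 of 7 of muscle fibres. A share is therefore not one of all miRNA in a tissue. The hepatocyte miRNAs MIR148A and MIR194 together held 99722 to 146084 RPM in the livers and 1865 to 3507 RPM in the muscles. MIR133 of muscle fibres held 371628 to 563959 RPM in the muscles and 290 to 2274 RPM in the livers, the highest in liver of ewe 98.

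The family was expressed in all 8 livers and made up 0.663% ± 0.289 (SD, n = 4) of miRNA reads in control liver and 0.587% ± 0.186 in prenatal T liver. MIR200B gave most of these reads, MIR200A fewer and MIR200C fewest, in that order in 8 of 8 livers. MIR200B took 74.9% ± 2.602 of the family's reads over the livers (n = 8), MIR200A 20.7% ± 2.54 and MIR200C 4.36% ± 1.98. A read of a small RNA library stands for a whole short RNA, so these shares were not divided by length, and they rank reads.

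MIR200B, the leading member, held 1308 normalised reads in control liver of ewe 98, 2012 in ewe 131, 1342 in ewe 132 and 3023 in ewe 201. In prenatal T liver it held 2190 in ewe 48, 1317 in ewe 185, 1229 in ewe 233 and 1688 in ewe 255. Ewe 201 was the highest control and ewe 48 the highest prenatal T ewe, and the groups overlapped. With a mean of 4930 ± 1919 RPM in control liver MIR200B ranked 31 of 105 miRNAs, between MIR30C (5120 ± 623) and MIR23A (4280 ± 1507), and neither gap exceeded the spread.

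MIR200A, its neighbour in the genome, held 261 normalised reads in control liver of ewe 98, 544 in ewe 131, 385 in ewe 132 and 920 in ewe 201. In prenatal T liver the values were 733 in ewe 48, 359 in ewe 185, 304 in ewe 233 and 509 in ewe 255. Ewes 201 and 48 were again the highest of their groups, and the lowest value of all was a control, ewe 98. In control liver MIR200A ranked 38 of 105 with 1346 ± 695 RPM, level with the metabolic miRNA MIR107 (1347 ± 338) and the lymphocyte miRNA MIR150 (1341 ± 352).

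MIR200C, from the other cluster, held 114.3 normalised reads in control liver of ewe 98, 55.8 in ewe 131, 43.4 in ewe 132 and 330 in ewe 201. In prenatal T liver it held 128 in ewe 48, 52.9 in ewe 185, 67.5 in ewe 233 and 99.4 in ewe 255. The value of ewe 201 was 7.60 times that of ewe 132 within the control group, while the prenatal T livers all lay inside the range of the controls. The difference of ewe 201 from ewe 132 exceeded counting error: their 95% Wilson intervals were 745 to 922 and 82.3 to 149 RPM. Such intervals, here and below, take in counting error alone: no molecular identifiers were counted, so several reads can come from 1 molecule. MIR200C ranked 50 of 105 in control liver with 350 ± 332 RPM, between MIR370 (375 ± 105) and MIR17 (323 ± 21.8).

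**Figure D1:**
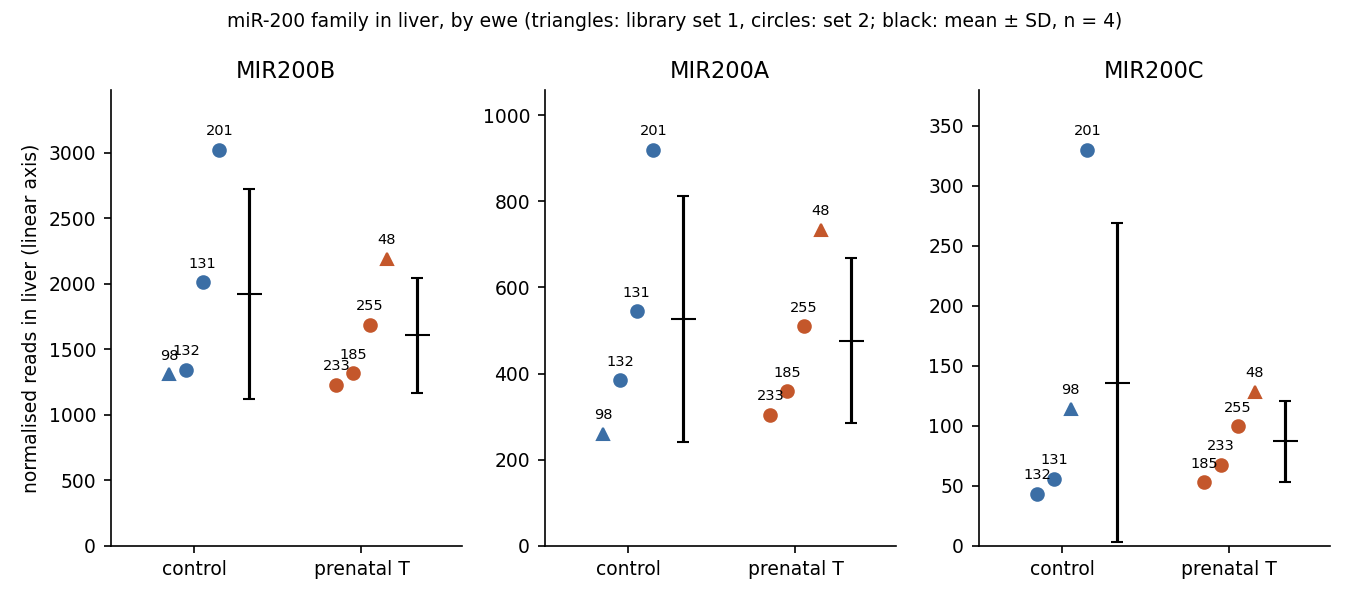
Normalised reads of MIR200B, MIR200A and MIR200C in liver (linear vertical axes from 0), each point 1 ewe with its number; triangles are library set 1 and circles set 2, and the black bar is the group mean with its SD (n = 4). Ewe 201 is the highest control and ewe 48 the highest prenatal T ewe in all 3 panels, and the groups overlap.

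Prenatal T and control livers did not differ beyond the spread between ewes for any member. Means in prenatal T and control liver were 1606 ± 437 and 1921 ± 803 normalised reads for MIR200B, 477 ± 192 and 527 ± 286 for MIR200A and 87.0 ± 33.7 and 136 ± 133 for MIR200C (SD, n = 4 each). The log2 fold change was -0.21 (95% interval -0.81 to 0.39) for MIR200B, -0.07 (-0.85 to 0.70) for MIR200A and -0.25 (-1.33 to 0.82) for MIR200C. The limma adjusted p = 0.959 for each, from a fit of all 81 miRNAs with a mean of at least 5 normalised reads over the livers, on log2(value + 1). Of the 3 members 0 were called at an adjusted p under 0.05, and the background was 0 of 81 miRNAs (0%), with 0 at an unadjusted p under 0.05 by limma, 3 by edgeR and 1 by DESeq2. The groups overlapped for all 3 members, and did not for 1.23% of the 81. Liver is a mixture of cells, so fewer cells of a type and less RNA per cell cannot be told apart.

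These directions rested on single livers and differed between library sets. Without liver of ewe 201 the log2 fold changes became 0.04 for MIR200B, 0.24 for MIR200A and 0.33 for MIR200C, the opposite sign in each case, with intervals of -0.52 to 0.60 for MIR200B and -0.43 to 1.09 for MIR200C. For MIR200A the sign also turned without prenatal T ewe 185 (0.034) or ewe 233 (0.113). The library numbers in the labels form 2 sets, with livers of ewes 98 and 48 in set 1 and the other 6 in set 2. In set 2, with 3 livers a group, the log2 fold changes were -0.53 (95% interval -1.09 to 0.04) for MIR200B, -0.60 (-1.26 to 0.07) for MIR200A and -0.39 (-1.68 to 0.89) for MIR200C (limma adjusted p = 0.943 each). In set 1 the prenatal T liver was the higher of the pair: 2190 against 1308 for MIR200B, 733 against 261 for MIR200A and 128 against 114.3 for MIR200C. That control, ewe 98, was the liver with the highest MIR133 level, and the part of this in the result was not tested.

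**Figure D2:**
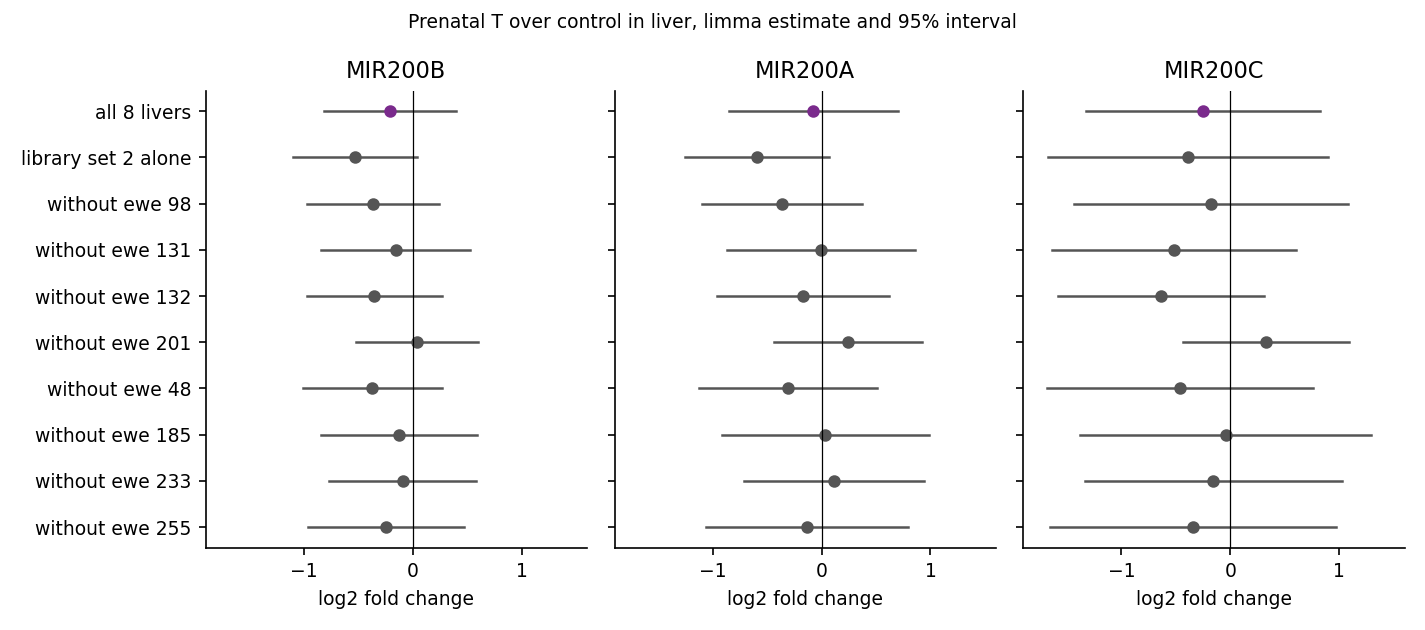
Log2 fold change of prenatal T over control liver for each member (point) with its 95% interval from limma (line), with all 8 livers, with library set 2 alone and with each liver left out. Every interval includes 0, and the estimates lie to the right of 0 for all 3 members without ewe 201.

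As shares of miRNA reads, a scale that needs no size factor, the members also overlapped between groups. MIR200B had 4343 ± 1240 RPM in prenatal T and 4930 ± 1919 in control liver, MIR200A 1288 ± 529 and 1346 ± 695, and MIR200C 237 ± 95.9 and 350 ± 332 (n = 4 each). Two-sided exact permutation tests over 70 assignments gave p = 0.60, 0.886 and 0.771, each 0.943 after adjustment over the 6 tests of members in both tissues. The smallest p this test can give is 0.0286.

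The members differed more between ewes of 1 group than most miRNAs of liver did. The SD of log2(value + 1) within groups was 1.001 for MIR200C, the largest of the 81 miRNAs tested, 0.67 for MIR200A (rank 7) and 0.48 for MIR200B (rank 14), against a median of 0.33. Next to MIR200C came MIR380 with 0.91, MIR323A with 0.87 and the muscle miRNA MIR133 with 0.82. Counting error alone would give an SD of 0.17 for MIR200C, 0.075 for MIR200A and 0.038 for MIR200B. Ewe 201 carried part of it: without that liver the SD was 0.63 for MIR200C (rank 8), 0.55 for MIR200A (rank 10) and 0.37 for MIR200B (rank 37). Without any other single liver MIR200C kept rank 1 or 2, and its SD lay between 0.92 and 1.09.

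**Figure D3:**
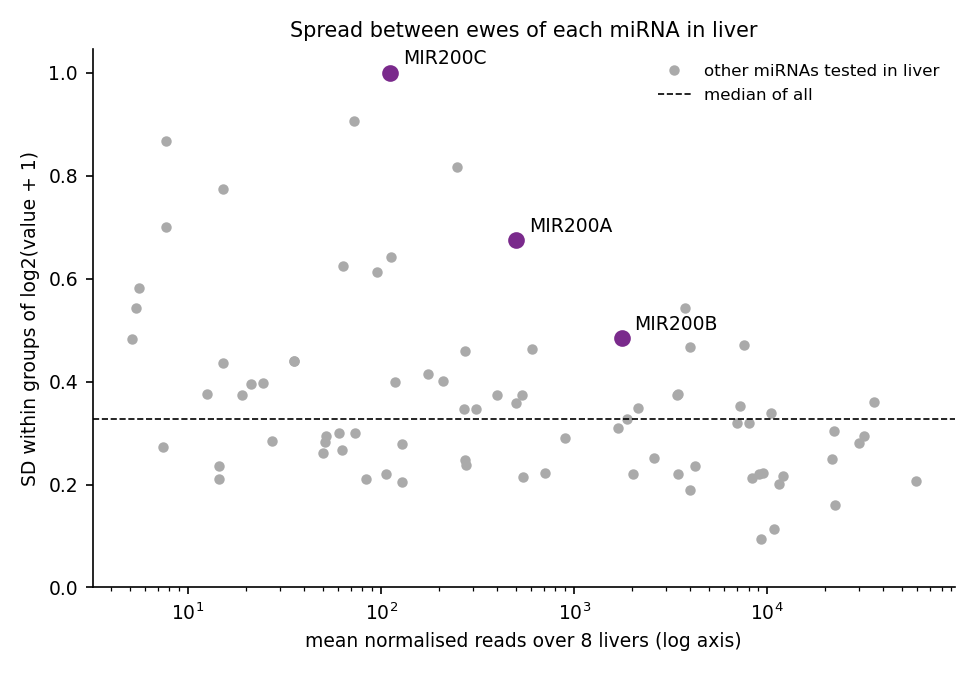
Spread between ewes (SD within groups of log2(value + 1), vertical axis from 0) against the mean normalised reads over 8 livers (log axis) for the 81 miRNAs tested; the members are named and the dashed line is the median of 0.33. MIR200C is the highest point at 1.001, and MIR200A and MIR200B also lie above the median.

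MIR200A and MIR200B, the neighbours in the genome, varied together from liver to liver, and MIR200C followed them less closely. Over 8 livers Pearson's r of log2(value + 1) for MIR200A and MIR200B was 0.958 (exact permutation p = 0.000174, adjusted over 3 pairs 0.000521) and Spearman's rho 0.976 (exact permutation p = 0.000397, adjusted 0.00119). Without ewes 98 and 201, the farthest from the median of MIR200A, r was 0.972, and within library set 2 (n = 6) it was 0.988. For MIR200B and MIR200C r was 0.746 (exact permutation p = 0.0295, adjusted 0.0443), but rho was 0.476 (p = 0.243, adjusted 0.299). Without ewes 201 and 48, the farthest from the median of MIR200B, r was -0.00026, so this relation depended on the livers included. For MIR200A and MIR200C r was 0.623 (exact permutation p = 0.0945, adjusted 0.0945) and rho 0.429 (p = 0.299, adjusted 0.299), and r was 0.679 without ewes 98 and 201. Set 2 keeps ewe 201 and leaves out ewes 98 and 48. Within set 2 both relations of MIR200C had r = 0.835 (n = 6, exact permutation p = 0.0528, adjusted 0.0528) and rho = 0.486 (exact permutation p = 0.356, adjusted 0.356). The members share each library's size factor.

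The ratio of 2 members within a library does not depend on that factor. Reads of MIR200A were between 0.199 and 0.335 times those of MIR200B in the 8 livers. The SD of log2 was 0.23, where counting error gives 0.084. Reads of MIR200C were between 0.0278 (ewe 131) and 0.109 (ewe 201) times those of MIR200B, with an SD of 0.68, where counting error gives 0.18. The control livers held both ends of this range: 0.0874 in ewe 98 and 0.109 in ewe 201, against 0.0278 in ewe 131 and 0.0324 in ewe 132. The prenatal T livers ran from 0.0402 in ewe 185 to 0.0589 in ewe 255. The mean log2 ratio differed between prenatal T and control livers by 0.13 for MIR200A over MIR200B, -0.043 for MIR200C over MIR200B and -0.18 for MIR200C over MIR200A. Two-sided exact permutation tests gave p = 0.486, 0.914 and 0.714, each 0.914 after adjustment over 3 ratios.

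**Figure D4:**
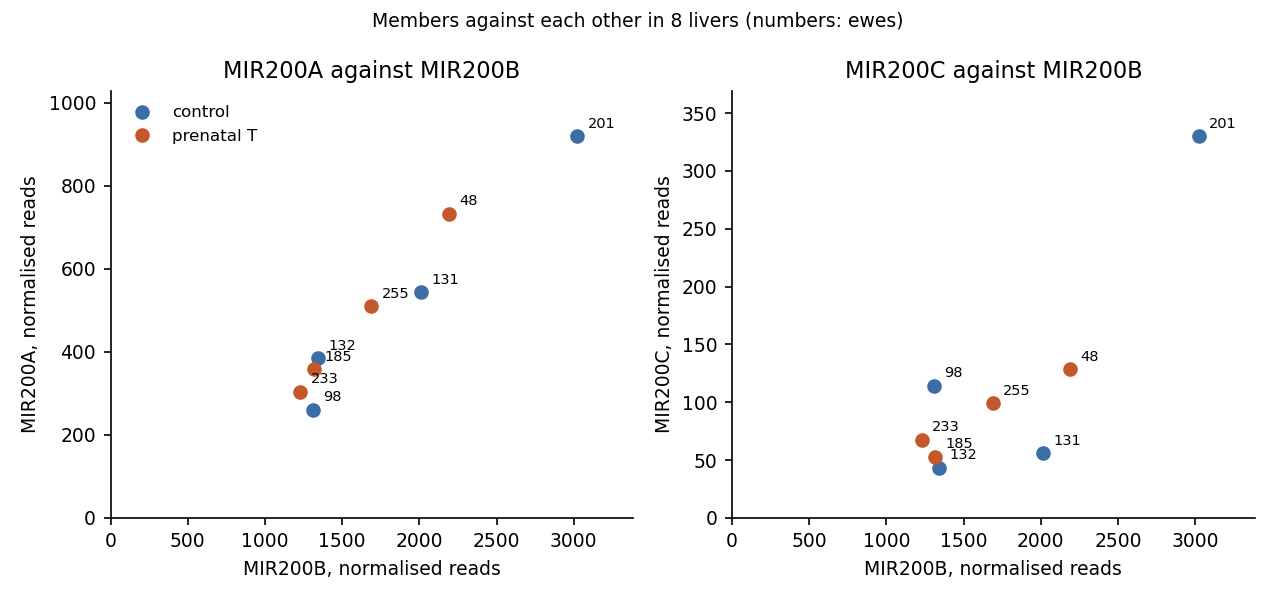
Normalised reads of MIR200A (left) and MIR200C (right) against MIR200B in the 8 livers (linear axes from 0), each point 1 ewe with its number, coloured by group. MIR200A follows MIR200B closely (r = 0.958), while MIR200C is high in ewe 201 and differs widely among livers of like MIR200B, such as ewes 98 and 132.

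The miRNAs whose pattern over the 8 livers was most like that of a member were named by Pearson's r of the deviations from group means, among 81 miRNAs. For MIR200A these were MIR200B (0.973), MIR374A (0.786) and MIR218A (0.691), and for MIR200B they were MIR200A (0.973), MIR374A (0.780) and MIR200C (0.741). For MIR200C they were MIR19B (0.743), MIR200B (0.741) and the HOX cluster miRNA MIR10B (0.700). MIR374A was highest in ewes 48 and 201, with 132 and 121 normalised reads against 79.7 to 116.8 in the other livers. MIR19B held 10.7 normalised reads in ewe 201 and 2.56 to 7.10 in the others. A single read stood for 0.49 (ewe 48) to 1.65 (ewe 233) normalised reads, so MIR19B lay at the floor of 3 reads in several livers. These are descriptions over 8 libraries.

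Other miRNAs of epithelia could be followed for 1 name only. Of 12 other epithelial miRNAs listed, among them MIR141 and MIR429 of the miR-200 clusters, the data held MIR194, an abundant miRNA of liver and gut. In prenatal T and control liver MIR194 had a log2 fold change of 0.11 (limma adjusted p = 0.959). Of 8 miRNAs of TGF-beta signalling and fibrosis, a setting in which miR-200 is studied, 6 rows were tested in liver: 5 had higher and 1 lower means in prenatal T liver and 0 were called, with a median log2 fold change of 0.12 against 0.0052 over all 81. MIR29B-1 and MIR29B-2 hold the same values. In muscle 0 of the 6 had higher and 6 lower means, 0 called (0% of 64 miRNAs were called), with a median of -0.23 against -0.045 over all 64.

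Marker lists of other cells were set beside the livers of ewes 201 and 48, where the members were high. The hepatocyte pair held 107907 RPM in liver of ewe 201 and 146084 in that of ewe 48, in ranges of 107239 to 136692 over the controls and 99722 to 146084 over the prenatal T ewes. The stromal miRNAs MIR143 and MIR199A, 2 of 4 listed, held 76551 RPM in ewe 201 and 113840 in ewe 48, with 73310 to 103456 over the controls and 76128 to 113840 over the prenatal T ewes. Both sums were the highest of all livers in ewe 48, and in ewe 201 they lay near the low end of the controls. MIR194 alone did not follow the sum of the hepatocyte pair. It held 24365 RPM in ewe 48, the lowest of the prenatal T livers (24365 to 29375). In ewe 201 it held 25563 RPM, near the high end of the controls (20375 to 26501). The blood miRNAs MIR16B and MIR150, 2 of 7 listed, summed to 5786 to 7378 RPM in control and 3878 to 7440 in prenatal T liver, with the lowest in ewe 48 and the highest control in ewe 201. MIR133, 1 of 7 muscle fibre miRNAs listed, held 353 to 2274 RPM in control and 290 to 470 in prenatal T liver. None of the endothelial (1 listed) or neuro-endocrine (3 listed) miRNAs was among the 105. The part of other cells in the members' spread was not tested.

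In muscle the family was near the floor. All 3 members together held 3 to 17 reads per library, or 0.00256% ± 0.00105 of miRNA reads in control and 0.00168% ± 0.000741 in prenatal T muscle (n = 4 each). Reads of MIR200A were 2, 3, 4 and 0 in control muscle of ewes 98, 131, 132 and 201, and 0, 0, 1 and 1 in prenatal T muscle of ewes 48, 185, 233 and 255. Reads of MIR200B were 2, 7, 3 and 3 in these controls and 6, 3, 5 and 1 in the prenatal T ewes. MIR200C had 4, 7, 9 and 3 reads in the controls and 10, 1, 0 and 1 in the prenatal T ewes. At or under 3 reads were 7 of 8 muscle libraries for MIR200A, 5 for MIR200B and 4 for MIR200C. By its 95% Wilson interval the count of 0 for MIR200C in ewe 233 allows up to 8.82 RPM. The counts of 0 for MIR200A in ewes 201, 48 and 185 allow up to 9.71, 4.34 and 8.60 RPM. Of ewes 201 and 48, the highest in liver, ewe 201 had the fewest MIR200C reads of the control muscles and ewe 48 the most of the prenatal T muscles. Muscle of ewe 48 was also the deepest library. Its 11.3 RPM of MIR200C (95% Wilson interval 6.14 to 20.8) lay within the intervals of ewe 255 (1.55 to 49.9) and ewe 185 (0.395 to 12.7). It lay above the interval of ewe 233 (0 to 8.82). MIR200A had 0 reads in muscle of ewes 201 and 48.

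No member passed the filter of a mean of 5 normalised reads in muscle, so none entered the fit of that tissue with the filter. Among the 64 miRNAs that passed it limma gave 0 calls, 5 miRNAs (7.81%) had an unadjusted p under 0.05, and for 3.12% the groups did not overlap. Shares of MIR200C were 5.59 ± 5.33 RPM in prenatal T and 12.5 ± 5.21 in control muscle, with overlapping groups (n = 4 each, exact permutation p = 0.143, adjusted 0.857). MIR200A had 2.78 ± 4.16 and 4.79 ± 3.56 RPM (exact permutation p = 0.571, adjusted 0.943) and MIR200B 8.45 ± 2.25 and 8.25 ± 4.45 (p = 0.943, adjusted 0.943). At these counts the comparison has little precision, and it shows neither a difference nor its absence.

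All 3 members were higher in liver than in muscle, in 8 of 8 ewes each. In control ewes the log2 fold change of liver over muscle was 7.51 for MIR200B (SE 0.35), 6.39 for MIR200A (SE 0.56) and 2.78 for MIR200C (SE 0.56). In prenatal T ewes it was 7.44 (SE 0.31), 7.34 (SE 0.53) and 4.12 (SE 0.61). These come from limma fits of 76 and 75 miRNAs on log2(value + 1) of reads scaled jointly over the 8 libraries of a treatment. Ewe was not a block in these fits. Of all miRNAs 76.3% were called in control and 62.7% in prenatal T ewes, 42.1% and 36% as higher in liver, and for 40.8% and 34.7% every liver lay above every muscle, as it did for the 3 members. The members passed the filter through their liver values and so had to differ, and their fold changes are given as a description without a test. Most livers are of library set 2 and 7 of 8 muscles of set 1, but 3 ewes had both libraries in 1 set. In these MIR200B held 3644 RPM in liver and 4.49 in muscle of ewe 98, 5895 and 6.78 in ewe 48 and 4745 and 8.81 in ewe 255.

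With muscle so near the floor these fold changes depend on the added 1, which shares do not need. Shares depend instead on the other miRNAs, and MIR133 alone held 371628 to 563959 RPM in the muscles. In RPM the median miRNA was higher in liver by a log2 difference of 1.62 in control and 1.501 in prenatal T ewes. The ratios below include this difference of scale. Pooled over the 4 control ewes, the share of MIR200B was 607 times higher in liver than in muscle (exact 95% interval 368 to 1086, from 6969 and 15 reads), that of MIR200A 282 times (148 to 618, from 1941 and 9) and that of MIR200C 29.0 times (19.1 to 46.2, from 511 and 23). In prenatal T ewes the ratios were 583 (353 to 1042) for MIR200B and 40.1 (22.8 to 78.2) for MIR200C. For MIR200A 2671 liver and 2 muscle reads gave a ratio of 1351 with a counting interval of 374 to 11162. The abundant liver miRNA MIR194 had ratios of 148 (132 to 167) and 215 (189 to 246) in control and prenatal T ewes, and MIR148A 33.0 (32.1 to 33.9) and 44.1 (42.8 to 45.5). These intervals leave out the spread between ewes. Ratios of single ewes ran from 315 to 1002 for MIR200B, from 5.88 (ewe 132) to 109 (ewe 201) for MIR200C in the 7 ewes with muscle reads and from 117.3 to 390 for MIR200A in 5. Without ewe 201 the pooled ratio of control ewes was 161 (84.3 to 352) for MIR200A and 12.5 (7.84 to 21.0) for MIR200C, and without ewe 132 that of MIR200C was 44.7 (26.4 to 82.4). In prenatal T ewes that of MIR200C was 97.0 without ewe 48, with 2 muscle reads left (26.5 to 806). That of MIR200A was 532 without ewe 48, 2174 without ewe 233 and 2541 without ewe 255, with 2, 1 and 1 muscle reads.

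**Figure D5:**
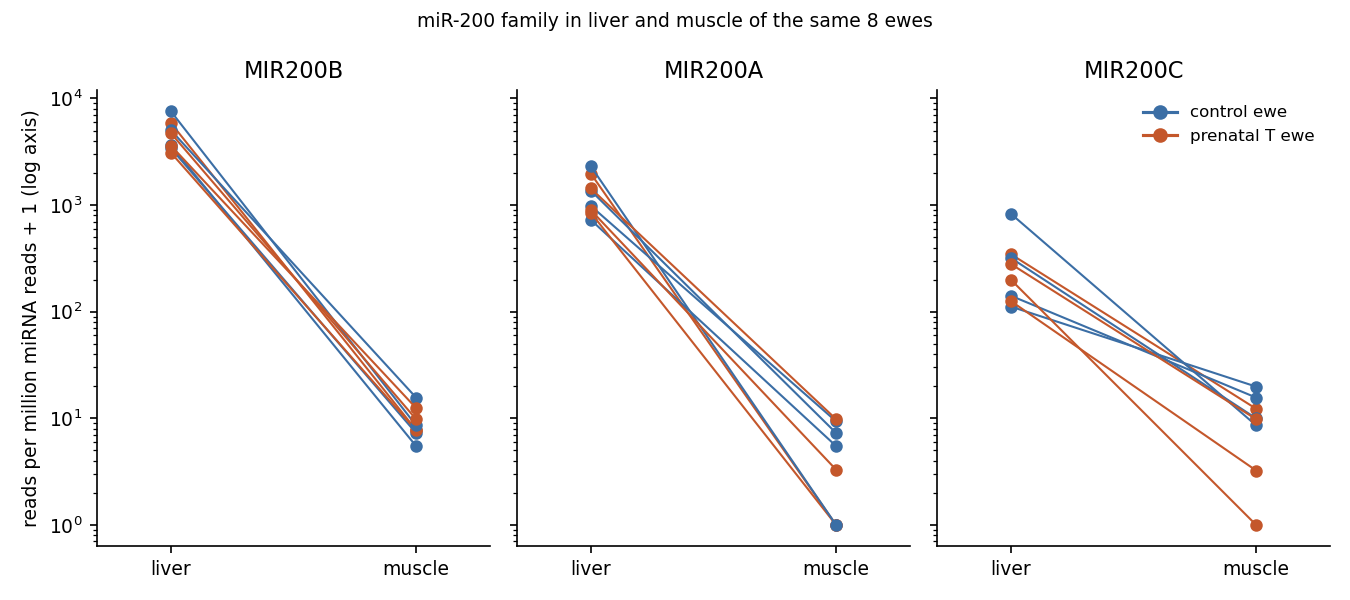
RPM plus 1 (log axis) of each member in liver and muscle, with a line for each of the 8 ewes; blue lines are control and orange lines prenatal T ewes, and points at 1 hold no reads. All lines run down from liver to muscle, in 8 of 8 ewes for each member.

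The sizes of these differences depended on the scale. The median log2 difference of all miRNAs was 0.13 in control and 0.20 in prenatal T ewes with joint scaling, but 1.62 and 1.501 for RPM and 1.52 and 1.39 in the deposited values. The share of called miRNAs that were higher in liver moved with it, from 55.2% to 93.5% for RPM and 93.3% as deposited in control ewes, and from 57.4% to 88.7% and 88.1% in prenatal T ewes. Relative to the median miRNA the members of control ewes lay at 7.38, 7.22 and 7.24 for MIR200B under these scalings, at 6.26, 5.95 and 5.996 for MIR200A and at 2.65, 2.53 and 2.55 for MIR200C. Without ewe 201 the log2 fold change of control ewes went to 1.89 for MIR200C and 5.36 for MIR200A, and without ewe 48 that of prenatal T ewes to 6.66 for MIR200A, with liver still the higher tissue.

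In the few muscle reads the makeup of the family was unlike that in liver. MIR200C gave 2.14% to 7.72% of the family's reads in the livers and 0% to 62.5% in the muscles, and its share was higher in muscle than in liver of the same ewe in 7 of 8 ewes, by 35.4 percentage points ± 19.9 (SD, n = 8; two-sided exact sign-flip permutation p = 0.0156, smallest possible 0.00781). Ewe 233, with 0 of 6 reads, was the exception. This comparison was chosen after the values were seen, so its p-value describes these values only. It rests on 76 family reads in all muscle libraries: single shares have wide intervals, such as 33.2% to 76.9% for the 9 of 16 reads of ewe 132. The split between MIR200B and MIR200C is also uncertain, as said above.

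Effects of prenatal T on the family in liver and in muscle were set against each other in a fit of all 16 libraries, without ewe as a block. The members passed the filter of this fit through their liver values, and none passed it in muscle. The difference of effects, liver minus muscle, was 1.21 for MIR200C (SE 0.83, limma adjusted p = 0.750), 0.78 for MIR200A (SE 0.79, adjusted p = 0.810) and -0.19 for MIR200B (SE 0.47, adjusted p = 0.863). Of the members 0 were called, as were 0% of the 76 miRNAs, with 3 miRNAs (3.95%) at an unadjusted p under 0.05. Leaving out 1 ewe gave 0.66 (without ewe 132) to 1.98 (without ewe 201) for MIR200C and 0.25 (without ewe 48) to 1.70 (without ewe 201) for MIR200A, none called. With 5 in place of 1 added before the log the differences were 0.49 and 0.28, and edgeR gave 0.36 and 1.84. The muscle side of each lies near the floor, at 0 to 10 reads, and depends on the number added. The fit therefore cannot decide whether prenatal T acted differently on the members in liver and muscle.

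The non-coding neighbours of MIR200C were measured at a few reads. LOC114114279 held 0 to 8 reads in the livers and 1 to 6 in the muscles, and the small nuclear RNA LOC114114213 0 to 8 and 0 to 2. At these counts no pattern of theirs can be set beside that of MIR200C.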

How the data were processed

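Total RNA of liver and muscle was made into small RNA libraries with a NEBNext kit, per the labels' protocols. Trimming, alignment and counting tools named per the submitters' processing notes are cutadapt 3.2, STAR 2.6.0c and featureCounts 1.6.1. Neither the build nor the handling of reads with several matches is given in the sources used here. The authors deposited a normalised signal: within a tissue and an RNA class, every value of a library is a whole number of reads over 1 shared factor, as computed from the values. All 1432 miRNA values above 0 were whole multiples of 1 read within 0.001 reads, as were 4471 snoRNA, 1099 snRNA and 10585 lncRNA values.

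Tests used limma 3.58.1 in R 4.3.3 (variance trend, log2(value + 1), mean of at least 5, Benjamini-Hochberg over all miRNAs tested, threshold 0.05) and exact permutation tests over ewes. Tissues were compared on recovered reads scaled by median-of-ratios factors. edgeR 4.0.16 and DESeq2 1.42.0 on recovered reads were alternatives. No library pair of a group was a duplicate (chi-square per degree of freedom 24.2 to 292 over 24 pairs). Liver and muscle of the same number come from the same ewe; deviations of their 76 miRNAs correlated at -0.28 to 0.36, median -0.011, over 8 ewes. All 105 miRNA names matched RefSeq. The members, lists and tests were chosen with earlier results of these data known. Named are the members, the listed miRNAs found, the 3 miRNAs nearest in pattern and the neighbours in abundance. Library sets, taken from the library numbers in the labels, were also a covariate.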

Additional observations from a re-analysis of the deposited data

Results flagged for a closer look

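MIR200B held 5.11 normalised reads in prenatal T muscle of ewe 233, from 5 reads, against 2.63 to 2.94 in the other 3 muscles of that group. Its gap to the nearest value took up 0.874 of the group's range, above Dixon's 95% limit for groups of 4. Of 34 groups of values looked at, this was the only one past the limit, and chance gives about 1 in 20. The other 3 muscles held 1 to 6 reads.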

How the results depend on the processing

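Every value of the members between prenatal T and control is limited by 4 ewes a group, and in muscle by 0 to 10 reads. In liver, 10 other settings (pseudocount, filter, variance trend, edgeR, DESeq2, scaling to miRNA reads, library set as a covariate or set 2 alone) gave log2 fold changes of -0.60 to -0.017 for MIR200A, -0.53 to -0.15 for MIR200B and -0.65 to -0.19 for MIR200C, none called. Of these, the filter and the variance trend do not enter the estimate. Library set as a covariate cannot move it either, as the sets are split alike in both groups. Leaving out 1 liver gave -0.36 to 0.24, -0.37 to 0.039 and -0.64 to 0.33, and shares moved between -287 and 263, -1104 and 303, and -192 and 47.3 RPM. In muscle the MIR200B share difference of 0.194 RPM became -0.0729 with reads of all 4 RNA classes as denominator and ran from -1.06 to 2.33 without 1 library. Without the filter, muscle log2 fold changes were -1.23 for MIR200C (SE 0.52, limma unadjusted p = 0.0279, adjusted p = 0.546), -0.66 for MIR200A (unadjusted p = 0.221, adjusted p = 0.898) and 0.025 for MIR200B (0.955 and 0.99), in a fit where 7 of 97 miRNAs had an unadjusted p under 0.05 and 0 were called. Within library set 2 the ratio differences became -0.070 for MIR200A over MIR200B, 0.14 for MIR200C over MIR200B and 0.21 for MIR200C over MIR200A. Without 1 liver the last 2 ran from -0.36 to 0.29 and from -0.51 to 0.18. The difference of effects between tissues ran from -0.37 to 0.077 for MIR200B without 1 ewe. The cause of these reversals was not tested.

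Between liver and muscle, 8 other settings gave log2 fold changes of 5.19 to 7.58, 6.75 to 8.85 and 2.33 to 4.16 for MIR200A, MIR200B and MIR200C in control ewes and of 5.64 to 8.68, 6.71 to 8.66 and 2.96 to 5.20 in prenatal T ewes. Pooled ratios without 1 ewe, chosen after the values were seen, ran from 161 to 417, 467 to 837 and 12.5 to 44.7 in control and from 532 to 2541, 420 to 691 and 31.7 to 97.0 in prenatal T ewes. Each ewe gave 1 library per tissue, so ewe as a block cannot move the log2 fold changes of liver over muscle, only their SE. In control ewes the fold changes stayed at 6.39, 7.51 and 2.78 for MIR200A, MIR200B and MIR200C (SE 0.60, 0.27 and 0.59). In prenatal T ewes the fold changes stayed at 7.34, 7.44 and 4.12 (SE 0.49, 0.30 and 0.46). The miRNAs called were 58 of 76 with and without the block in control ewes and 50 against 47 of 75 in prenatal T ewes. With the block the differences of effects also stayed at 0.78, -0.19 and 1.21 (SE 0.76, 0.44 and 0.79, limma adjusted p = 0.757, 0.841 and 0.662). The difference in the MIR200C share of family reads ran from 32.2 to 41.1 points without 1 ewe.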
